A study of Mus musculus with 4 samples.

Results

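Scavenger receptors are the surface and endosomal proteins with which macrophages bind and take up modified lipoproteins, lipids, dying cells and bacteria. The genes described here are Msr1, Marco, Cd36, Scarb1, Scarb2, Olr1, Cd68 and Cd5l, chosen by name, 8 of 24108 genes in the tables, and all 8 were found there. They were followed through RNA-seq libraries of mouse bone marrow-derived macrophages that lacked or carried Batf2, which encodes a transcription factor of the AP-1 family. The 4 libraries were KO (Batf2-/-) at 3 h of LPS, KO at 0 h of LPS, WT (Batf2+/+) at 3 h and WT at 0 h, with 1 library in each group. All came from C57BL/6 bone marrow grown in GM-CSF (10 ng/ml) for 6 days, of which the adherent cells were kept. The cells of every group, the 0 h cells included, also received IFN-gamma (10 ng/ml) for 4 h, and LPS was given at 100 ng/ml after it. Every difference below therefore compares single libraries, no test between conditions was possible, and no p-value is given.

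The family is held together by what its proteins bind rather than by common descent. Class A receptors (Msr1, which takes up acetylated LDL, and Marco, which binds bacteria and particles) have a collagen-like stalk. Class B members cross the membrane at both ends: Cd36 binds oxidised LDL and long-chain fatty acids, Scarb1 is the HDL receptor that takes up cholesteryl esters, and Scarb2 (LIMP-2) is a protein of the lysosomal membrane that sorts enzymes to the lysosome. Olr1 (LOX-1) is a lectin-like receptor for oxidised LDL, Cd68 (macrosialin) is a heavily glycosylated protein of late endosomes used as a macrophage marker, and Cd5l (AIM) is a secreted protein with scavenger receptor cysteine-rich domains. Oxidised lipids taken up through CD36 can feed PPAR-gamma, which acts on the Cd36 gene, and engagement of Toll-like receptors shifts macrophage lipid handling.

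On the GRCm38 build, to which the positions in the deposited tables correspond, Msr1 spans chr8:39581700-39642678, Marco chr1:120474538-120505084, Cd36 chr5:17781690-17888959 and Scarb1 chr5:125277087-125341094. Scarb2 spans chr5:92443873-92505608, Olr1 chr6:129485247-129507165, Cd68 chr11:69664213-69666170 and Cd5l chr3:87357881-87371074. All 8 are protein-coding genes. Since Batf2 encodes an AP-1 family protein and NF-kappaB acts downstream of LPS, the promoters were read for the letters of such sites. RefSeq promoter windows (GRCm38.p6, 250 bases before to 50 after the annotated start) were given for 6 of the 8 genes, Msr1 and Scarb1 being the others. The AP-1 letters TGANTCA, which read the same on both strands, stood in the windows of Olr1 and Cd68, and the letters of an NF-kappaB type site (GGG and TTTCC with any 2 bases between them, searched on both strands) stood in the window of Marco. Among 32851 promoter windows, 7.81% held the AP-1 letters and 1.63% the NF-kappaB type letters. These are shown, on the minus strand that all 3 genes are read from, with the matched letters in capitals.
Marco, chr1:120505035-120505064, 40 to 11 bases before the start: gggacatggaGGGTCTTTCCcaaacttctt
Olr1, chr6:129507207-129507236, 71 to 42 bases before the start: cccgcgacggtTGAGTCAtcctctgctaga
Cd68, chr11:69666171-69666420, the 250 bases before the start: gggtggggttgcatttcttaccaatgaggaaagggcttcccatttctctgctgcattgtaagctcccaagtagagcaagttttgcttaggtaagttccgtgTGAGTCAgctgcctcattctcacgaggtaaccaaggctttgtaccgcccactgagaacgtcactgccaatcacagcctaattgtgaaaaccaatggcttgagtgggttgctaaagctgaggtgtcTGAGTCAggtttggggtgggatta

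The Marco match was GGGTCTTTCC at -30 to -21 from the RefSeq start, and the deposited Marco transcript begins 60 bases upstream of that start, so the match lay inside the transcript as the tables place it. The Olr1 match was TGAGTCA at -60 to -54. The RefSeq Olr1 gene reaches upstream to base 129507350 of chromosome 6, so this match lay inside the gene as annotated. Cd68 held TGAGTCA at -149 to -143 and again at -24 to -18. None of the 6 windows held the interferon-stimulated response type (GAAA repeated with any 2 bases between, on either strand, in 3.44% of all windows), the PU.1 type (GAGGAAGT, 3.20%), the STAT type (TTCNNNGAA, 8.30%) or the PPAR/RXR direct repeat (AGGTCA repeated with any 1 base between, 0.0396%). The windows of Cd36, Scarb2 and Cd5l held no match to any of the 6 motifs. A match describes letters only and not a bound site.

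The libraries were checked before the genes were read. Batf2 itself stood at 10.1 FPKM in KO cells at 3 h and 0.26 in KO cells at 0 h, against 234 in WT cells at 3 h and 2.63 in WT cells at 0 h. FPKM is a fragment count scaled by transcript length and library size, so levels can be set beside each other between genes. Relative to the WT 3 h library, whose depth is taken as 1, depth was 1.51 in KO at 3 h, 1.39 in KO at 0 h and 1.22 in WT at 0 h. All 9 macrophage markers, Csf1r, Itgam and Lyz2 among them, were at 1 FPKM or more in every library, and their summed level lay between 16151 and 24596 FPKM, of which Lyz2 made up 14415 to 23092. Cd68 itself is among the 9. B cell markers summed to at most 0.41 FPKM, T cell markers to at most 4.54, endothelial markers to at most 4.66 and mast cell and basophil markers to 5.83 to 23.3. Dendritic cell markers summed to 494 to 584 FPKM, nearly all of it Itgax, which macrophages grown in GM-CSF also express. Of these 8 markers, 6 were at 1 FPKM or more in WT at 3 h and 5 in each other library. Flt3 stayed at or under 0.06 FPKM, while Zbtb46 had 3.20 to 7.70, Clec9a 1.59 to 9.68 and Ccr7 1.80 to 35.2. In such bulk libraries, fewer cells of a type and less RNA per cell cannot be told apart.

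Ordered by level, Cd36, Cd68 and Msr1 led in all 4 libraries and Cd5l came last in all 4. Cd36 had 524 FPKM in KO cells at 3 h and 729 in KO cells at 0 h, against 486 in WT cells at 3 h and 701 in WT cells at 0 h. In between, the order turned with LPS. At 3 h it ran Marco, Olr1, Scarb2, Scarb1 in KO and in WT, whereas at 0 h it ran Marco, Scarb2, Scarb1, Olr1 in KO and Scarb2, Scarb1, Olr1, Marco in WT. Marco thus ranked 4 of 8 in KO at 0 h and 7 of 8 in WT at 0 h. Neighbours in these orders were apart beyond their 95% intervals with 3 exceptions, namely Scarb1 and Olr1 in KO at 0 h, Msr1 and Marco in WT at 3 h, and Olr1 and Marco in WT at 0 h. The intervals are those of the authors' program, here moved onto the FPKM with their relative width kept. By the limits as deposited, Marco lay apart from Msr1 in WT at 3 h and from Olr1 in WT at 0 h. Scarb2 and Scarb1 in WT at 0 h then overlapped. Such intervals cover counting and read assignment within a library, not the spread between cultures.

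**Figure D1:**
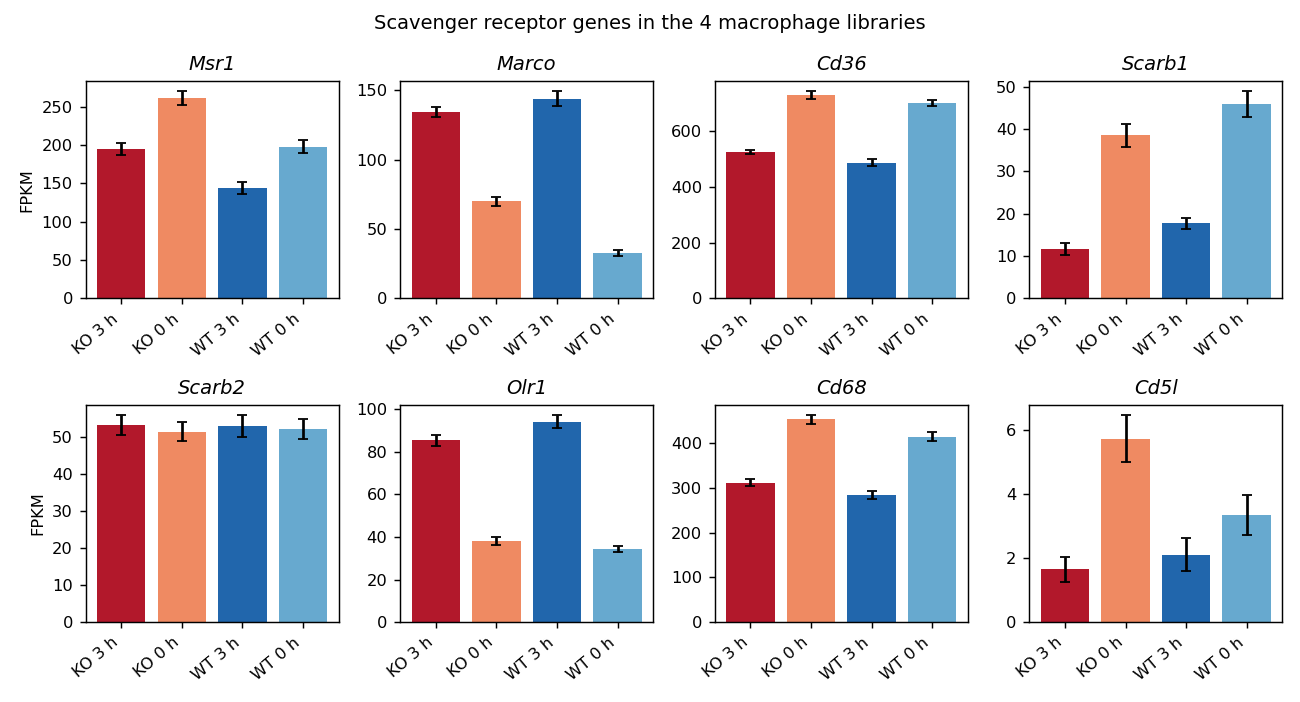
Level in FPKM (y axis, from 0, a scale of its own in each panel) of the 8 scavenger receptor genes in the KO 3 h, KO 0 h, WT 3 h and WT 0 h libraries, 1 bar per library, with the deposited 95% interval placed on the deposited FPKM. Marco at 0 h stands at 69.9 in KO against 32.5 in WT, and the 4 bars of Scarb2 lie between 51.4 and 53.2.

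The first question was how the receptors of cells without Batf2 differed from those of WT cells before LPS. A difference was called where log2(FPKM + 1) differed by 1 or more, the level reached 1 FPKM in either library, and the intervals, not moved, did not overlap. Marco was the member that passed, with 69.9 FPKM in KO cells at 0 h against 32.5 in WT cells at 0 h. Its KO to WT ratio was 2.15 (95% interval 1.98 to 2.33) and its log2 difference 1.08. With a pseudocount of 5 that difference came to 0.996, just under the limit of 1. That was 1 of 8 members higher, where 1.32% of the 10845 genes measured were called higher in KO at 0 h and 1.71% were called in either direction. The median difference of the 8 was 0.14, beside -0.0003 over all genes measured.

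Marker lists of some other cell types stood higher in the same KO 0 h library, and that of dendritic cells did not. All 8 neutrophil and precursor markers measured had more FPKM in KO than in WT cells at 0 h, and S100a8, S100a9, Ltf and Ngp passed the rule. S100a8, a calcium-binding protein abundant in neutrophils, had 4545 FPKM in KO at 0 h against 1838 in WT at 0 h. The list summed to 8773 FPKM in KO against 3593 in WT at 0 h, and to 5098 in KO against 5301 in WT at 3 h. The 5 stromal markers summed to 73.8 FPKM in KO against 33.0 in WT at 0 h, all 5 higher and Col3a1 and Sparc called, and to 52.7 in KO against 33.5 in WT at 3 h. No marker of either list was at 0 in any library. Of the mast cell and basophil markers, 5 of 5 measured were higher in KO at 0 h, and Hdc, which makes histamine, was called, with 3.86 FPKM in KO against 1.26 in WT. Of the dendritic cell markers, 4 of 5 measured were lower in KO at 0 h (list median -0.60), and the lectin gene Cd209a was called lower, with 2.13 FPKM in KO against 6.46 in WT. Marco was at 2.15 times its WT level at 0 h, and the part of these markers in its difference was not tested.

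The remaining members differed less between KO and WT cells at 0 h. Msr1 had 261 FPKM in KO cells against 198 in WT cells, a ratio of 1.32 (1.25 to 1.39). For Cd5l the levels were 5.73 in KO and 3.34 in WT, a ratio of 1.72 (1.37 to 2.15) and a log2 difference of 0.63. Scarb1 stood at 38.5 in KO and 45.8 in WT, a ratio of 0.84. Olr1 had 38.1 in KO and 34.3 in WT and Cd68 had 453 in KO and 414 in WT, with log2 differences of 0.15 and 0.13. The log2 difference of Cd36 was 0.06, and it was -0.08 when the highest transcript entry was taken in place of the sum. Scarb2 had 51.4 in KO and 52.1 in WT, with overlapping intervals. So 6 of 8 members lay above WT with intervals apart, at folds that for 5 of them fell short of the rule, where 9.87% of all genes measured lay above WT with intervals apart. That share covers genes of all levels, and none was taken among genes as abundant as the members. Cd36 was among the 6 at a ratio of 1.04, and its intervals overlapped after the median-ratio rescaling. At 3 h, 3 of 8 members lay above WT and 3 of 8 below it with intervals apart. After the median-ratio rescaling these were 3 of 8 above and 1 of 8 below. The share of all genes apart at 3 h is not given here, so these counts have no background to be read against.

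At 3 h of LPS, no member passed the rule between genotypes (0 of 8, where 1.44% of 9807 genes measured were called). Marco now had 134 FPKM in KO cells and 144 in WT cells, a ratio of 0.93 (0.89 to 0.98). Scarb1, the HDL receptor, had 11.7 FPKM in KO cells at 3 h and 17.7 in WT cells at 3 h, a ratio of 0.66 (0.57 to 0.76) and a log2 difference of -0.56. Of the genes measured, 3.74% lay further below 0 than Scarb1. Msr1 had 195 in KO and 144 in WT, a ratio of 1.35 (1.27 to 1.45), with 4.33% of genes above it. Olr1 stood at 85.4 in KO and 94.1 in WT, Cd36 at 524 in KO and 486 in WT, and Cd68 at 312 in KO and 285 in WT, all within 0.14 of 0 on the log2 scale. Scarb2 had 53.2 in KO and 53.0 in WT and Cd5l 1.65 in KO and 2.11 in WT, and the intervals of these 2 genes overlapped. The median difference of the 8 was -0.05, beside -0.07 over all genes measured. Among the cell type markers, Cd14, the co-receptor for LPS, was called higher, with 625 FPKM in KO against 294 in WT at 3 h, and its LPS response was 1.20 higher in KO on the log2 scale. Mmp8, a neutrophil collagenase, was called higher with 103 in KO against 50.1 in WT, as was Gata2, a factor of mast cells, with 2.24 in KO against 0.34 in WT. Clec9a, a lectin of dendritic cells, was called lower with 2.16 in KO against 9.68 in WT.

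**Figure D2:**
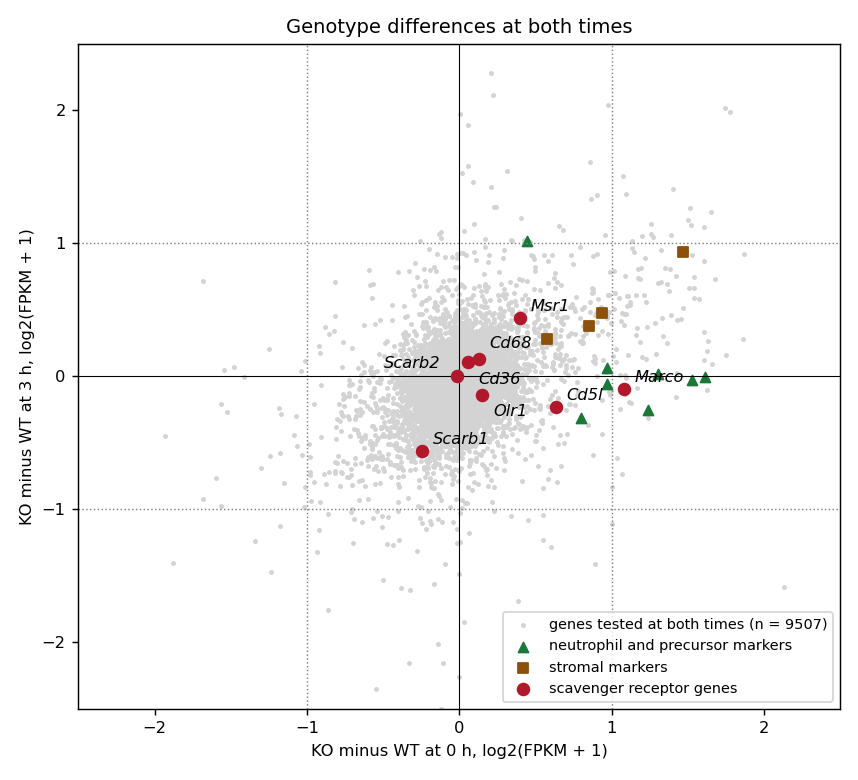
KO minus WT difference in log2(FPKM + 1) at 0 h (x axis) and at 3 h (y axis) for 9507 genes measured at both times, each axis from 2 libraries that the other does not use; 43 genes lie outside the plotted range. Red circles are the scavenger receptor genes, green triangles neutrophil and precursor markers, brown squares stromal markers and dotted lines a difference of 1. Marco lies at 1.08 on the x axis and -0.10 on the y axis, among most of the neutrophil markers, and the stromal markers lie above 0 on both axes.

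Within a genotype, the members changed differently over 3 h of LPS as deposited. Olr1 and Marco were higher, Marco in KO by less than the limit. Scarb1 was lower, Cd5l was called lower in KO only, and Scarb2 stayed near its 0 h level. The most abundant receptors, Cd36, Cd68 and Msr1, moved with the bulk of genes. Olr1 had 85.4 FPKM in KO cells at 3 h against 38.1 in KO cells at 0 h, and 94.1 in WT cells at 3 h against 34.3 in WT cells at 0 h. It rose 2.24-fold in KO (2.12 to 2.36) and 2.75-fold in WT (2.60 to 2.90). Marco had 144 FPKM in WT cells at 3 h against 32.5 in WT cells at 0 h and rose 4.42-fold there (4.09 to 4.78). In KO cells Marco had 134 at 3 h against 69.9 at 0 h, a ratio of 1.92 (1.83 to 2.02) and a log2 difference of 0.93, which is under the limit and passed it after both rescalings of the libraries (1.57 by the median ratio, 1.34 by the 75th percentile). Calls of a rise numbered 1 of 8 in KO and 2 of 8 in WT, where 7.85% of 10962 genes in KO and 7.55% of 10843 in WT were called higher. After the median-ratio rescaling these were 2 of 8 in KO and 2 of 8 in WT, where 13.0% of genes in KO and 11.9% in WT were called higher.

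Scarb1 fell in both genotypes. It had 11.7 FPKM in KO cells at 3 h against 38.5 in KO cells at 0 h, 3.30-fold lower (2.87 to 3.78). In WT cells it had 17.7 at 3 h against 45.8 at 0 h, 2.59-fold lower (2.34 to 2.86), but the WT difference was -0.80 and not called after rescaling by the median ratio. Cd5l, the least abundant member, had 1.65 FPKM in KO cells at 3 h against 5.73 in KO cells at 0 h and fell by 1.34 on the log2 scale. That call was lost with a pseudocount of 5 (-0.69) and after the median-ratio rescaling (-0.87). In WT cells Cd5l had 2.11 at 3 h and 3.34 at 0 h, and its intervals overlapped. A fall was called for 2 of 8 members in KO and 1 of 8 in WT, where 27.9% of all genes measured were called lower in KO and 23.2% in WT. After that rescaling these were 1 of 8 in KO (Scarb1) and 0 of 8 in WT, where 10.2% of genes in KO and 9.82% in WT were called lower.

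Those backgrounds show how wide the shift with LPS was in the deposited values. The median gene measured differed by -0.64 between 3 h and 0 h in KO and by -0.54 in WT, and 21.9% of calls in KO and 24.6% in WT were rises. After the median-ratio rescaling, 56.1% of calls in KO and 54.7% in WT were rises. Read against the median gene, Marco lay 1.57 above it in KO and 2.65 in WT, Olr1 1.78 in KO and 1.97 in WT, and Scarb2 0.68 in KO and 0.57 in WT. Scarb1 lay below the median gene, at -1.003 from it in KO and -0.78 in WT. Cd5l lay at -0.71 from it in KO and 0.06 in WT.

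Msr1, Cd36 and Cd68 had less FPKM at 3 h than at 0 h in KO and in WT, by log2 differences of -0.42 in KO and -0.46 in WT for Msr1, -0.47 in KO and -0.53 in WT for Cd36 and -0.54 in each genotype for Cd68, but after the median-ratio rescaling Msr1 (0.22 in KO, 0.08 in WT), Cd36 (0.17 in KO, 0.01 in WT) and Cd68 in KO (0.11) lay above 0. None of them passed the rule, and each lay within 0.22 of the median gene as deposited. Scarb2 had 53.2 FPKM in KO cells at 3 h and 51.4 in KO cells at 0 h, and 53.0 in WT cells at 3 h and 52.1 in WT cells at 0 h, and its deposited intervals overlapped in these comparisons. After the median-ratio rescaling Scarb2 lay at 0.68 in KO and 0.55 in WT, with intervals apart and under the limit of 1. The median difference of the 8 members was -0.45 in KO and -0.47 in WT.

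**Figure D3:**
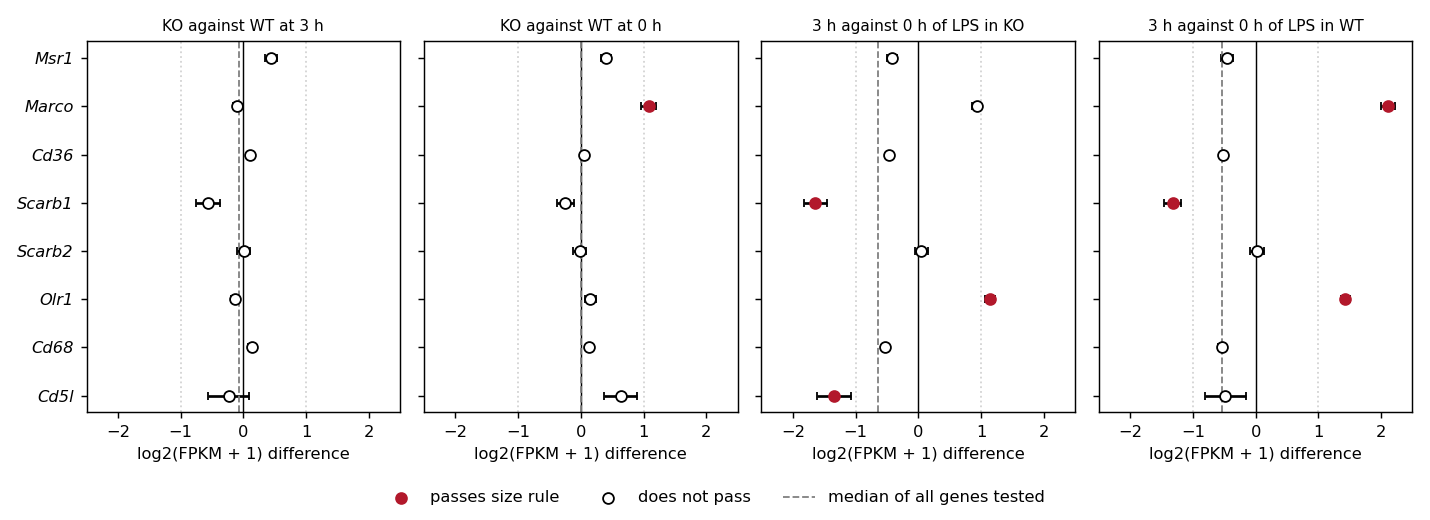
Difference in log2(FPKM + 1) of each scavenger receptor gene in the 4 comparisons named above the panels, with its 95% interval; filled red points pass the size rule, open points do not, dashed lines mark the median of all genes measured and dotted lines a difference of 1. Marco is filled for KO against WT at 0 h and for LPS in WT, Olr1 and Scarb1 for LPS in KO and in WT, and Cd5l for LPS in KO.

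Set against each other, the LPS responses of the genotypes differed most for Marco among the 8 genes. Its response in KO was 1.18 lower on the log2 scale than its response in WT (-1.18, 95% interval -1.31 to -1.05), and 1.11% of the 11127 genes measured lay further below 0. It was the member past the limit of 1 (1 of 8, where 1.17% of genes were called lower and 1.82% in either direction). The value of -1.18 is made up of a KO minus WT difference of -0.10 at 3 h and 1.08 at 0 h. For Cd5l the difference of responses was -0.86, and -1.10 with a pseudocount of 0.1. Scarb1 came to -0.32 and Olr1 to -0.29, with intervals that did not reach 0, and Msr1, Cd36, Scarb2 and Cd68 to between 0.00 and 0.05 with intervals that did. This split depended on the scaling. After the median-ratio rescaling the interval of Scarb1 reached 0 (-0.46 to 0.009). Those of Msr1 (0.02 to 0.26), Cd36 (0.10 to 0.21) and Cd68 (0.03 to 0.18) then did not. Among the 8 neutrophil and precursor markers, 6 also had a response at least 1 lower in KO, with a list median of -1.20, and their part in the Marco value was not tested. These differences and those between genotypes and times are made from the same 4 libraries and are not independent of each other.

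The tables list transcripts, so the entries of Msr1 and Scarb1 could be read apart. Msr1 had 2 entries. The long one, with 458 codons and 10 exons in GENCODE, encodes the type I receptor with its cysteine-rich domain, and the short one, with 354 codons, the type II receptor without it. The long entry had 127 FPKM in KO cells at 3 h and 132 in KO cells at 0 h, against 75.2 in WT cells at 3 h and 106 in WT cells at 0 h. The short entry had 67.9 in KO cells at 3 h and 129 in KO cells at 0 h, against 68.9 in WT cells at 3 h and 92.0 in WT cells at 0 h. At 3 h the KO to WT ratio was therefore 1.69 (1.57 to 1.83) for the long entry and 0.99 (0.93 to 1.04) for the short one. The long entry made up 65.2% of Msr1 (64.0 to 66.5) in KO at 3 h and 50.5% in KO at 0 h, against 52.2% in WT at 3 h and 53.6% in WT at 0 h. The KO 3 h library stood apart from the other 3 in this share. After LPS in KO, the short entry had 0.53 times its 0 h level and the long entry, whose intervals overlapped, 0.96 times.

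Scarb1 had 3 entries, of which 1 was listed at 0 throughout. The entry of 509 codons is SR-BI, and that of 506 codons is SR-BII, which has another cytoplasmic tail. SR-BI had 9.30 FPKM in KO cells at 3 h and 33.8 in KO cells at 0 h, against 17.7 in WT cells at 3 h and 40.6 in WT cells at 0 h. SR-BII had 2.38 in KO at 3 h and 4.74 in KO at 0 h, was listed at 0 in WT at 3 h, and had 5.18 in WT at 0 h. The KO to WT ratio of SR-BI at 3 h was 0.53 (0.47 to 0.59), below the 0.66 of the summed gene. The split of single reads between overlapping transcripts is the authors' program's estimate, and a value of 0 beside a covered partner can be a failed split, so the sums above are the firmer values.

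**Figure D4:**
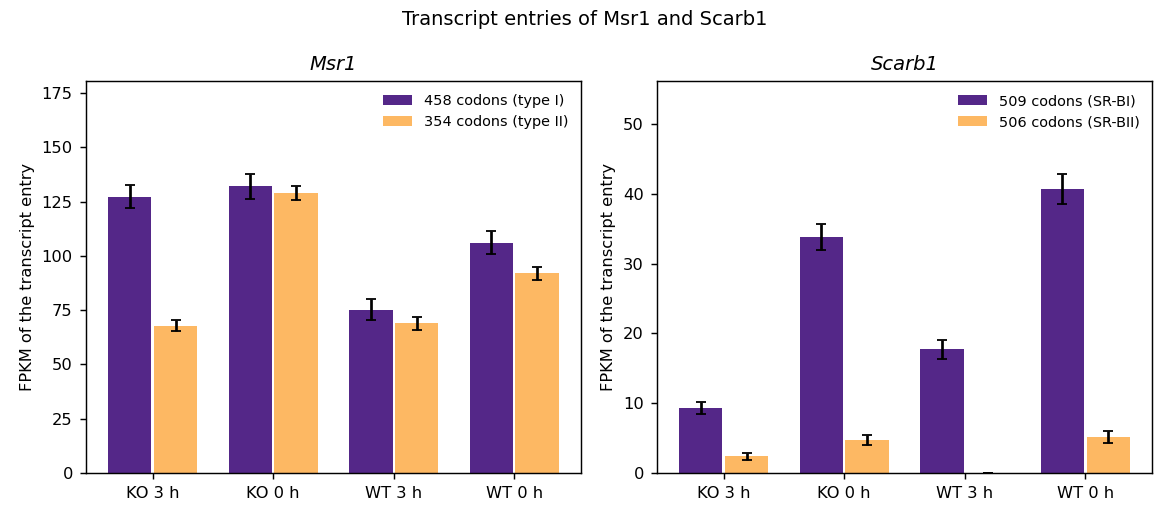
Level in FPKM (y axis, from 0) of the 2 main transcript entries of Msr1 (left) and Scarb1 (right) in the KO 3 h, KO 0 h, WT 3 h and WT 0 h libraries, 1 bar per entry and library, with 95% intervals. The long Msr1 entry stands at 127 in KO against 75.2 in WT at 3 h while the short entry stands at 67.9 in KO against 68.9 in WT, and the 506-codon entry of Scarb1 has no bar in WT at 3 h, where it is listed at 0.

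Cd36 was listed under 5 entries that all encode the same 472 codons and begin at base 17849792, 17835896 or 17888959 of chromosome 5. Of the 2 entries that begin at base 17849792, that of 16 exons was listed at 0 in every library. That of 15 exons held 82.9% of the Cd36 level in KO at 3 h and 74.3% in KO at 0 h, against 77.1% in WT at 3 h and 81.6% in WT at 0 h. The 2 entries that begin at base 17835896 held the rest, and the entry that begins farthest upstream, at base 17888959, was listed at 0 in every library. The RefSeq window searched for Cd36 lies at the start of the lesser group. Those 2 entries share their locus in the tables, and 1 of them was listed at 0 in KO at 3 h and in WT at 0 h, so a split between them cannot be interpreted. Olr1 was carried by its 363-codon entry and Cd68 by its 326-codon entry, and their other entries were listed at 0 in all 4 libraries.

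Scavenger receptor genes beyond the 8 were followed in a list of 17, of which 9 were measured in each KO to WT comparison. None passed the rule at 3 h (0 of 9) or at 0 h (0 of 9), with list medians of 0.08 and 0.11 beside -0.07 and -0.0003 over all genes measured. Of all genes measured, 1.44% were called at 3 h and 1.71% at 0 h, so these counts do not set the list apart. With LPS, 2 rose and 5 of 9 fell in KO, and 2 rose and 4 of 10 fell in WT, where 7.85% of all genes measured in KO and 7.55% in WT were called higher, and 27.9% in KO and 23.2% in WT lower. List medians were -1.07 in KO and -0.75 in WT, beside -0.64 in KO and -0.54 in WT over all genes. Of the 3 with the highest mean over the 4 libraries, Cxcl16, a chemokine whose membrane form binds oxidised LDL, had 218 FPKM in KO cells at 3 h against 32.6 in KO cells at 0 h, and 204 in WT cells at 3 h against 42.2 in WT cells at 0 h. Clec7a (dectin-1, a beta-glucan receptor) had 322 in KO at 3 h, 580 in KO at 0 h, 376 in WT at 3 h and 645 in WT at 0 h and was not called, nor was Cd44, the hyaluronan receptor, at 155 to 185. The other called genes are named after their values were seen. Scarf1 rose in both genotypes, by 1.60 in KO and 1.80 in WT on the log2 scale. Mrc1 (the mannose receptor, CD206) had 30.5 in KO at 3 h against 125 in KO at 0 h, and 32.9 in WT at 3 h against 130 in WT at 0 h. Colec12, Stab1 and Lrp1 fell in both genotypes and Scarf2 in KO. After the median-ratio rescaling, the falls called were Colec12 and Mrc1 in KO (2 of 9) and Mrc1 in WT (1 of 9). Over all genes, 10.2% in KO and 9.82% in WT were then called lower. Both rises were still called (2 of 9 in each), where 13.0% of genes in KO and 11.9% in WT were called higher. List medians were then -0.54 in KO and -0.24 in WT, beside -0.08 in KO and -0.07 in WT over all genes.

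**Figure D5:**
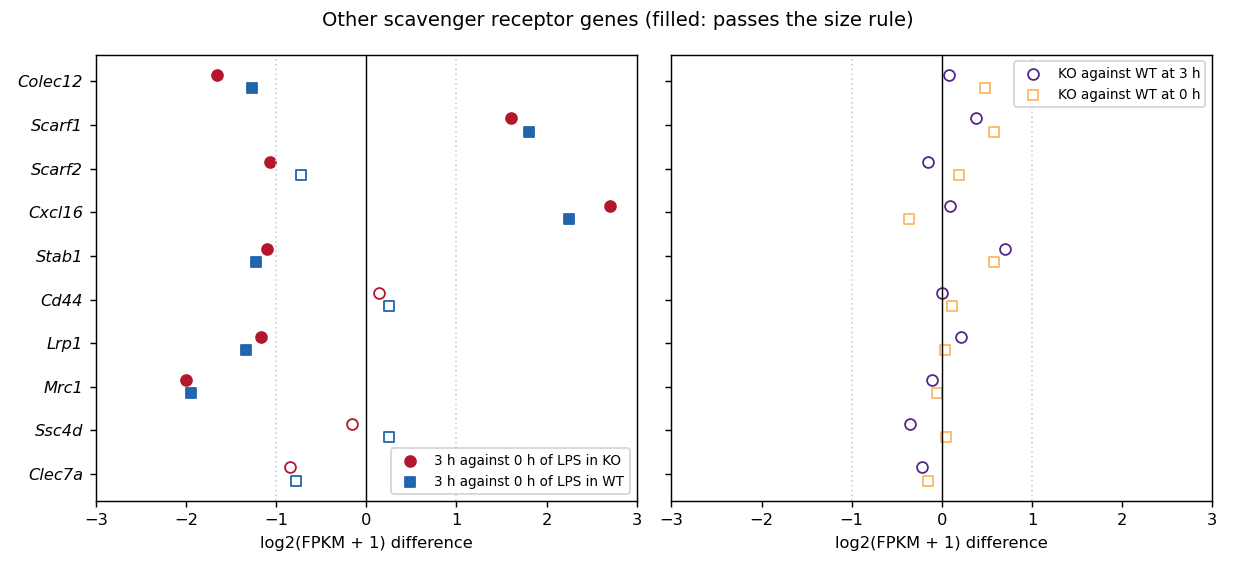
Difference in log2(FPKM + 1) of the 10 other scavenger receptor genes that reached 1 FPKM in some library, for 3 h against 0 h of LPS in KO and WT (left) and for KO against WT at 3 h and 0 h (right); filled marks pass the size rule and dotted lines mark a difference of 1. Cxcl16 and Scarf1 are filled to the right of 0 and Mrc1, Colec12, Stab1 and Lrp1 to the left of 0 in both genotypes, and no mark is filled on the right panel.

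Genes that handle lipid after uptake were a list of 16, of which 15 were measured. At 3 h, Abcg1, which exports cholesterol to HDL, was the 1 gene called between genotypes, with 8.68 FPKM in KO cells against 19.8 in WT cells (log2 difference -1.10). At 0 h, Apoe, an apolipoprotein that macrophages secrete, was the 1 called, with 663 in KO cells against 312 in WT cells (1.09). Each was 1 of 15, where 1.44% of all genes measured were called at 3 h and 1.71% at 0 h. List medians between genotypes were -0.03 at 3 h and 0.10 at 0 h, and those with LPS were -0.82 in KO and -0.65 in WT, beside -0.64 in KO and -0.54 in WT over all genes. With LPS, Acsl1, which activates long-chain fatty acids, rose by 3.73 in KO and 4.38 in WT on the log2 scale, and 7 of 15 fell in each genotype, namely Soat1, Abcg1, Npc1, Nceh1, Fabp4, Fabp5 and Lrp1, where 27.9% of all genes in KO and 23.2% in WT were called lower. After the median-ratio rescaling 3 of these falls were called, Abcg1, Nceh1 and Fabp4, in KO and in WT, where 10.2% of genes in KO and 9.82% in WT were called lower. Abcg1 had 8.68 in KO at 3 h against 75.2 in KO at 0 h, and 19.8 in WT at 3 h against 89.4 in WT at 0 h. The abundant Lpl (948 to 1401 FPKM), Lipa (280 to 494) and Fabp5 (286 to 873) were not called between genotypes.

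Of 14 transcription factors known to act on one or more of these genes, 13 were measured. None was called between genotypes at 3 h (0 of 13) or at 0 h (0 of 13). Of all genes measured, 1.44% were called at 3 h and 1.71% at 0 h, so these counts do not set the list apart. With LPS, 5 of 13 fell in each genotype, Pparg, Rxra, Tfeb and Klf4 among them, as deposited and after the median-ratio rescaling. Over all genes, 27.9% in KO and 23.2% in WT were called lower as deposited, and 10.2% in KO and 9.82% in WT after rescaling. Pparg, which acts on Cd36, had 1.63 FPKM in KO cells at 3 h against 14.8 in KO cells at 0 h, and 2.00 in WT cells at 3 h against 15.0 in WT cells at 0 h. After that rescaling Nr1h2 and Mitf were called higher in both genotypes and Nfe2l2 in KO, where 13.0% of genes in KO and 11.9% in WT were. The list median as deposited was -0.62 in KO and -0.52 in WT with LPS, close to the -0.64 in KO and -0.54 in WT over all genes, and -0.19 at 3 h and -0.01 at 0 h between genotypes. Spi1 (PU.1) at 309 to 386 FPKM, Nfe2l2 at 227 to 316 and Cebpb at 148 to 222 were the most abundant and were not called between genotypes.

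The 11 partners and adaptors of CD36 included no gene called between genotypes at 3 h (median -0.24) or at 0 h (median -0.03). Of all genes measured, 1.44% were called at 3 h and 1.71% at 0 h, so the lack of calls does not set the list apart. With LPS, Tlr6, which pairs with TLR2 and CD36, rose by 1.04 in KO and 1.56 in WT on the log2 scale, and Cav1 rose by 2.74 in KO and 2.62 in WT. Tlr4 fell in both genotypes and Cd81 in KO, calls that were lost after the median-ratio rescaling, while Lyn in both genotypes and Tlr2 and Itgb1 in KO were then called higher. As deposited, 2 of 11 rose in each genotype, where 7.85% of all genes in KO and 7.55% in WT were called higher. Falls were 2 of 11 in KO and 1 of 11 in WT, where 27.9% and 23.2% were called lower. After rescaling 5 of 11 rose in KO and 3 of 11 in WT, where 13.0% and 11.9% were called higher. The list median was 0.05 in KO and -0.04 in WT as deposited, beside -0.64 in KO and -0.54 in WT over all genes. After rescaling it was 0.62 in KO and 0.45 in WT, beside -0.08 in KO and -0.07 in WT. The most abundant, Itgb2 (775 to 1053 FPKM) and Cd9 (378 to 658), were not called. Of 10 genes of the lysosomal membrane and of LIMP-2 cargo, none was called between genotypes (medians 0.04 at 3 h and 0.17 at 0 h). The shares over all genes were again 1.44% at 3 h and 1.71% at 0 h. Npc1 and Atp6v0d2, 2 of 10, fell with LPS in both, near the 27.9% of all genes called lower in KO and 23.2% in WT. Atp6v0d2, 1 of 10, was also called in both after rescaling, where 10.2% of genes in KO and 9.82% in WT were called lower. List medians were -0.64 in KO and -0.47 in WT as deposited, beside -0.64 in KO and -0.54 in WT over all genes. Ctsd, at 2595 to 5066 FPKM the most abundant of these genes, was not called in any comparison.

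For the 4 members that spanned at least 1 on the log2 scale, the genes whose pattern over the 4 libraries was nearest were looked up among 8105 genes, by the Euclidean distance between log2(FPKM + 1) values centred on their means. Nearest to Marco were Ly6c1 (distance 0.23), Ly6c2 (0.24) and C5ar1 (0.32). Ly6c2 had 283 FPKM in KO at 3 h and 122 in KO at 0 h, against 307 in WT at 3 h and 61.6 in WT at 0 h, and its reads can be confused with those of the near-identical Ly6c1. C5ar1, the receptor for complement C5a, had 60.8 in KO at 3 h and 28.6 in KO at 0 h, against 55.6 in WT at 3 h and 16.6 in WT at 0 h. Nearest to Scarb1 were Zfp385a, Lrrc45 and Mir212, at distances of 0.04, to Olr1 Psme1, Gna13 and Nfxl1, at 0.06, and to Cd5l Selenom (0.08), Tmem205 (0.09) and Thoc7 (0.11). Marco's nearest genes were thus farther from it than those of the other 3 members were from theirs. With 4 libraries such likeness describes these libraries only.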

How the data were processed

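Each library had a table of FPKM per RefSeq transcript with lower and upper limits and a status. Per the submitters' processing notes, reads were processed with TopHat2, Bowtie, SAMtools and Cufflinks on mm9, and the deposited FPKM are Cufflinks values. No version is named there. Libraries were strand-specific and single-read, per the labels' protocols. Although mm9 is named, 99.0% of 18563 genes with 1 entry lay inside or within 1000 bases of their GRCm38.p6 gene, so GRCm38 positions are given.

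Of 33841 entries per library, all but 166 were named, 33437 from the RefSeq gene table, and FPKM was summed per symbol. All 18 entries of the 8 genes were named there with status OK in all 4 libraries. For some entries (Marco and Scarb2 in all libraries) the FPKM lay outside its own deposited limits, for a reason not given. For printed intervals, orders of level and propagated limits, the limits were therefore moved onto the FPKM with their relative width kept. Differences were taken between values of log2(FPKM + 1), and the added 1 makes those of low genes too small. A gene was measured in a comparison where it reached 1 FPKM in 1 or both libraries with status OK. A call between 2 libraries needed a difference of 1 or more and 95% limits, not moved, that were apart. Differences of responses carry propagated limits. Depth is given relative to WT at 3 h, from the upper limits of 4762 entries at 0 in all libraries; total reads are not stated.

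The members and gene lists were chosen with earlier results of these data known. Named genes are the 8 members, Batf2, list genes called between genotypes, the 3 most abundant of each list of related genes (marker lists are given by their sums), and the 3 nearest patterns; others are named where a count was small. Ly6g and the protein sequences were not used here, and 2 list genes are not reported. Work used Python 3.11.15, pandas 2.3.3, NumPy 2.4.6 and Matplotlib 3.10.9.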

Additional observations from a re-analysis of the deposited data

Results flagged for a closer look

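Among the 8 genes, 4 had a KO minus WT difference of opposite sign at 3 h and at 0 h, and the difference between the times was not tested, since each group is 1 library. The share of all genes with opposite signs is not given here, so 4 of 8 has no background to be read against. Marco was -0.10 at 3 h and 1.08 at 0 h, a difference of responses of -1.18. Cd5l was -0.23 at 3 h and 0.63 at 0 h, a difference of -0.86 at levels under 6 FPKM. Olr1 was -0.14 at 3 h and 0.15 at 0 h, a difference of -0.29. As deposited, 65.6% of all genes measured lay below 0 at 3 h, with a median of -0.07. After the median-ratio rescaling, Marco lay at -0.01 and Olr1 at -0.05 at 3 h, each with overlapping intervals. Scarb2 was 0.01 at 3 h and -0.02 at 0 h, a difference of 0.03 (0.025) with overlapping intervals at both times.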

How the results depend on the processing

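Each difference of the 8 genes was recomputed under 7 other settings, 280 values in all. Of these, 273 kept their direction or stayed uncalled on the same side of the rule, 4 calls were lost, 3 were gained and no called value changed sign; 6 uncalled values changed sign, 5 of them with the median-ratio rescaling and 1 (Cd36 at 0 h) with the highest entry. Lost were Marco at 0 h (0.996, pseudocount 5), Cd5l in KO (-0.69, pseudocount 5; -0.87, median ratio) and Scarb1 with LPS in WT (-0.80, median ratio). Members called went to 0 for KO against WT at 0 h with a pseudocount of 5 and to 2 for the difference of responses with a pseudocount of 0.1.

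Counts over all genes moved more. Against 141 calls between KO and WT at 3 h, there were 273 with a pseudocount of 0.1, 46 with 5 and 299 with the highest entry. At 0 h, against 185, there were 344, 64 and 327 under the same settings, and for the difference of responses, against 203, there were 440, 70 and 487. With LPS in KO, 3924 calls became 1580 with a pseudocount of 5 and 2503 with the median ratio, and in WT 3332 became 1383 with a pseudocount of 5. The highest entry drops part of a gene's level by construction; other causes were not tested.

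No paired analysis was possible because each group is 1 library and no test was made. For the same reason no library was left out in turn. Total reads are not stated, and by the deposited intervals Cd5l, at 1.65 to 5.73 FPKM, is the least precise of the 8.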
